A study of Mus musculus with 9 samples.

Results

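The genes described here are named for proteins of the respiratory chain that are made from nuclear DNA, with assembly factors of complex I. They were selected by gene symbol, as the rows of the gene table whose GENCODE M21 symbol begins with Nduf, Uqcr, Atp5 or Cox followed by a digit from 4 to 8, or is Sdha, Sdhb, Sdhc, Sdhd, Cyc1 or Cycs, leaving out symbols with "-ps". The rule found 100 of the 56289 rows, carrying 99 symbols, because Atp5o stands on 2 rows. There were 39 rows for complex I, 8 for assembly factors of complex I, 4 for complex II, 9 for complex III, 1 for cytochrome c, 21 for complex IV and 18 for complex V. Of the 100 rows, 96 are annotated as protein coding and 4 as processed pseudogenes (Ndufb4c, Ndufa11b, Ndufs6b and Cox6c2). RNA was sequenced from cultures labelled as RAW264.7, a murine macrophage-like line of BALB/c origin. The 3 cultures labelled untreated (Con) received neither TNF-α nor WBT, and the study describes PBS for its control cells. The TNF-α group held 3 cultures kept for 24 h in the cytokine TNF-α at 20 ng/ml. The study lists this cytokine as recombinant human TNF-α. The TNF-α+WBT group held 3 cultures given the same dose of TNF-α together with WBT at 1 µg/ml, also over 24 h, where WBT is Wang Bi tablet, a multi-herb medicine used in rheumatoid arthritis. The labels call this agent WBP. The study describes the 3 libraries of a group as biological replicates, and all come from 1 cell line.

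The respiratory chain sits in the inner mitochondrial membrane and turns the energy of electrons into a proton gradient and then into ATP. Complex I (NADH dehydrogenase) and complex II (succinate dehydrogenase, also an enzyme of the tricarboxylic acid cycle) pass electrons to ubiquinone, complex III passes them to cytochrome c, complex IV reduces oxygen with them, and complex V (ATP synthase) uses the gradient. Complexes I, III, IV and V combine subunits encoded in the nucleus with a few encoded in mitochondrial DNA, whereas complex II is wholly nuclear. Many subunits are accessory proteins without redox centres, and several subunits of complex IV exist as paralogues used in different tissues. In macrophages, the chain is best known for its remodelling on inflammatory activation, when cells shift between respiration and glycolysis.

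Values are FPKM, fragments scaled to transcript length and library depth, so levels can be compared between genes on a per-length scale but are shares of a library. The libraries held an estimated 20334000 to 26160500 fragments in Con, 18872000 to 22503000 in TNF-α and 16906000 to 19843000 in TNF-α+WBT. Con and TNF-α+WBT thus did not overlap in depth. The part of depth in the comparisons was not tested. The labelled cell type was not borne out by its markers. Of 12 macrophage markers, Ptprc, Spi1, Itgam, Adgre1 and Tyrobp were listed at 0 in all 9 libraries, and Cd14 alone was above 1 FPKM in every library (4.30 to 6.16 FPKM). The summed level of the 12 was 5.87 to 7.30 FPKM in Con, 6.86 to 7.88 in TNF-α and 7.11 to 8.40 in TNF-α+WBT. By contrast, 8 of 10 fibroblast markers and 7 of 8 Schwann cell markers were above 1 FPKM in all 9 libraries. The summed Schwann cell markers were at 906 to 964 FPKM in Con, 739 to 788 in TNF-α and 792 to 821 in TNF-α+WBT, and the summed fibroblast markers at 3486 to 3733, 3869 to 3946 and 3772 to 3867. No new cell type name is given to the cultures here, and the results below describe them as labelled groups. The part of these marker shifts in the respiratory chain results was not tested. In bulk RNA, fewer cells of a type and less RNA per cell cannot be told apart.

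Of the 100 rows, 87 were above 1 FPKM in all 9 libraries and 12 had a mean below 1 FPKM. Among the 9 rows left out for "-ps", 1 averaged 1 FPKM or more, Ndufb1-ps at 22.1 FPKM. The summed level of all members was 7067 FPKM ± 215 (SD, n = 3) in Con, 7177 ± 146 in TNF-α and 7089 ± 144 in TNF-α+WBT, and the libraries of the 3 groups overlapped. This was 1.65% of all FPKM. The 13 protein genes of mitochondrial DNA, which encode the remaining subunits, made up 7.13%. Across the members above 1 FPKM in every library, the median of the complexes rose from 6.49 FPKM for the 8 complex I assembly factors, over 42.1 FPKM for 36 complex I genes, 56.5 for the 4 complex II genes and 81.4 for the 9 complex III genes, to 105 for 12 complex IV genes and 117 for 17 complex V genes.

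**Figure D1:**
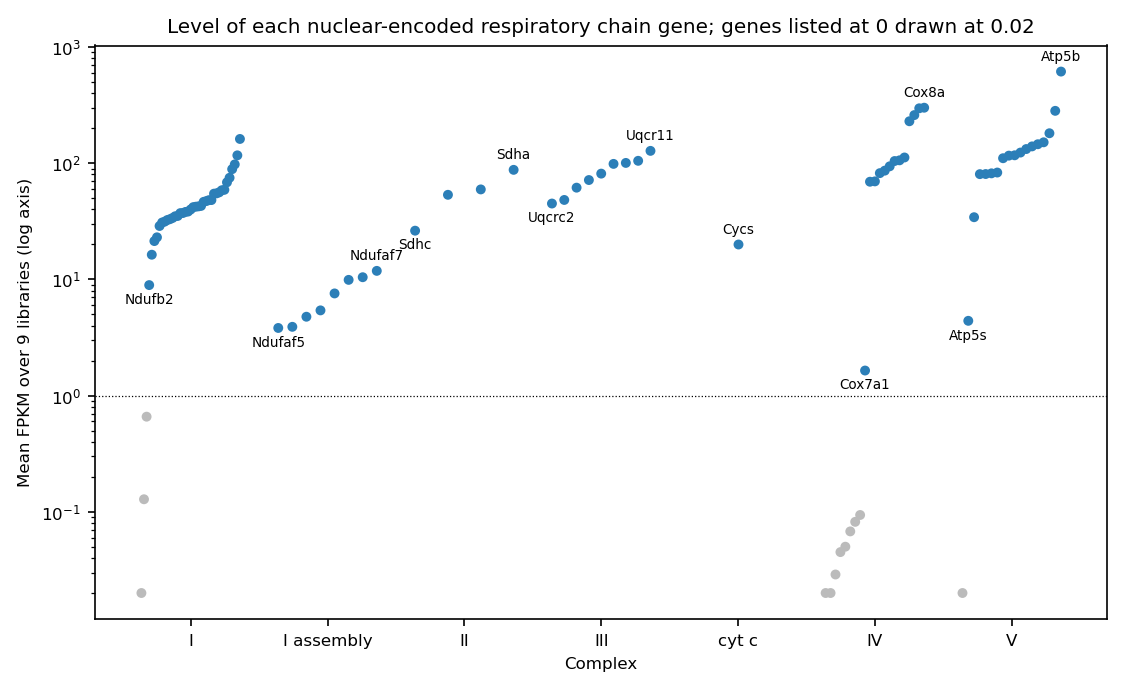
Mean FPKM over the 9 libraries on a log axis, 1 point a gene, ordered by level within each complex, with the lowest gene of at least 1 FPKM named in each complex and the highest named in all but complex I. Blue points lie at or above 1 FPKM and grey points below it, genes listed at 0 are drawn at the bottom, and the 8 grey points in complex IV are paralogues such as Cox6a2 and Cox8b.

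Complex V held the most abundant member. Atp5b, the catalytic β subunit of the ATP synthase head, was at 615 FPKM on average and ranged from 588 to 670 FPKM over the libraries. Atp5a1, the α subunit of the same head, was at 181 FPKM. The lowest member of complex V above 1 FPKM was Atp5s, known as coupling factor B and not a structural subunit, at 4.40 FPKM. The lowest complex I gene above 1 FPKM was Ndufb2, an accessory subunit, at 8.94 FPKM. The assembly factors, which help to build complex I and then leave it, lay lower, from Ndufaf7 at 11.8 FPKM to Ndufaf5 at 3.82 FPKM. In complex III, Uqcr11, a small accessory subunit, was highest at 128 FPKM and Uqcrc2, a core protein, lowest at 45.0 FPKM. Cyc1, the cytochrome c1 of complex III, was at 61.6 FPKM. Cycs, the mobile electron carrier cytochrome c, was at 20.2 FPKM, with 17.6 FPKM in its lowest library, a TNF-α+WBT culture.

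The 4 genes of complex II differed in level although each protein occurs once in the enzyme. Sdha, the flavoprotein that binds succinate, was at 87.7 FPKM, Sdhb, the iron-sulphur subunit, at 59.5 FPKM, Sdhd, a membrane anchor, at 53.5 FPKM, and Sdhc, the other anchor, at 26.3 FPKM. The ranges of Sdhb (53.4 to 68.5 FPKM) and Sdhd (50.9 to 55.9 FPKM) overlapped over the libraries, whereas Sdha (85.4 to 92.1 FPKM) and Sdhc (25.5 to 28.3 FPKM) stood apart from all others.

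Of the paralogue sets of complex IV, those of Cox4i, Cox6a, Cox6b, Cox8 and Ndufa4 were carried almost wholly by the form known from most tissues. Cox4i1 was at 260 FPKM and Cox4i2, the form known from lung and low oxygen, at 0.0501 FPKM. Cox6a1 was at 297 FPKM and Cox6a2, the heart and skeletal muscle form, at 0.0939 FPKM. Cox6b1 was at 106 FPKM and Cox6b2, the testis form, at 0.0450 FPKM. Cox8a was at 300.5 FPKM, with Cox8b at 0.0289 FPKM and Cox8c listed at 0 throughout. Ndufa4, first assigned to complex I and now counted with complex IV, was at 82.2 FPKM, against 0.0820 FPKM for Ndufa4l2, a paralogue known as a target of hypoxia signalling. In these 5 sets the ubiquitous form made up at least 99.7% of the set in every library. The Cox7a set was divided, with 27.7 to 44.9% in Cox7a2 and 54.4 to 71.9% in Cox7a2l over the libraries. Cox7a2 was at 69.8 FPKM, the muscle form Cox7a1 at 1.64 FPKM (0.878 to 2.79 FPKM), and Cox7a2l, a factor of the supercomplex of complexes III and IV, at 112 FPKM.

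The 12 members with a mean below 1 FPKM were Cox4i2, Cox6a2, Cox6b2, Cox8b, Cox8c, Ndufa4l2 and Cox7b2, the 4 processed pseudogenes, and the second Atp5o row. Reads of a processed pseudogene can be shared with its parent gene, so their low values are uncertain. Ndufs6b, Cox8c, Cox7b2 and the second Atp5o row were listed at 0 in all 9 libraries and could not be tested. Cox8b was above 0 in only 2 libraries and was not tested either, so 95 of the 100 rows, 3 of them processed pseudogenes, entered the comparisons. The 3 genes of the proton-conducting c subunit of ATP synthase, which encode the same mature protein, were all expressed. Atp5g2 made up 53.5 to 55.9% of their summed FPKM, Atp5g3 made up 26.6 to 30.7% and Atp5g1 made up 14.2 to 19.9%, an order kept in every library.

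Short motifs of factors known to act on respiratory genes were searched in the promoters of the members. Windows from 250 bases before to 50 bases after the RefSeq start (GRCm38.p6) were matched for 77 members, 75 by symbol and 2 by an older symbol, and both strands were searched. GCGCATGC, the core of the site of nuclear respiratory factor 1, was present in 16.9% of the member promoters (13 of 77), in 3.05% of 27025 genes and in 7.25% of 2995 genes averaging 20 FPKM or more. AAGATGGC, a YY1-type motif, was present in 14.3% of the members, 3.19% of all genes and 6.54% of those of at least 20 FPKM. CCGGAAG, the ETS-type motif bound by GABP, was present in 23.4% of the members and 9.93% of all genes, but in 23.7% of the genes of at least 20 FPKM. GGGCGGG, an Sp1-type motif, stood in 36.4% of the members, 27.9% of all genes and 58.2% of those of at least 20 FPKM. The E box CACGTG stood in 7.79% of the members, 8.09% of all genes and 13.9% of those of at least 20 FPKM. TATAAA, the box near the start of many regulated genes, stood in 9.09%, 15.7% and 8.78% in the same order. At least 1 of the first 3 motifs named was present in 35 of 77 member promoters (45.5%), in 14.9% of all genes and in 33.6% of those of at least 20 FPKM. These matches are descriptions of letters in a window and not of binding.

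The windows printed here were chosen because they hold the motif with the highest ratio of members to all genes, in genes that the comparisons describe and in Cycs. Each line gives 30 bases around 1 match from RefSeq, read along the strand that carries the motif, with GCGCATGC in capitals. The stretches lie at chr4:140961206-140961235 (minus strand) for Sdhb, chr9:108936667-108936696 (plus strand) for Uqcrc1, chr10:80406807-80406836 (plus strand) for Uqcr11, chr5:115349102-115349131 (minus strand) for Cox6a1 and chr6:50566611-50566640 (plus strand) for Cycs.
Sdhb: cggcccgtaggGCGCATGCccactgggctt
Uqcrc1: gactccgctctGCGCATGCgcagcgcggct
Uqcr11: gcagacgtataGCGCATGCgtgaaggcgat
Cox6a1: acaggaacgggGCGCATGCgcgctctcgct
Cycs: ggtttgtgcgcGCGCATGCgagctagcatg
For Cycs, the RefSeq start was not found in an annotated transcript of the gene, whereas those of the others printed were. In all but the Sdhb window, the motif was followed by g. Of these 5 genes, Sdhb and Uqcrc1 were called lower and Cox6a1 was called higher with TNF-α.

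To find whether TNF-α altered these genes, each was compared between TNF-α and Con with limma on log2(FPKM + 0.1), fitted over 25417 genes, and a gene was called at a Benjamini-Hochberg adjusted p under 0.05. Sdhb, Uqcrc1 and Uqcrc2 were lower and Cox6a1, Ndufs5 and Ndufa13 were higher in TNF-α, with folds of TNF-α to Con between 0.827 and 1.22. Thus 3 of the 95 members were called higher, where 2.94% of all genes tested were, and 3 were called lower, where 1.93% of all genes tested were. These shares cover genes of every level, while 76 members averaged 20 FPKM or more. Among all genes of that level, 32 of 444 with transcripts of 500 to 1000 bases were called in either direction. The counts were 59 of 565 at 1000 to 1500 bases, 130 of 1066 at 1500 to 2500, 255 of 1697 above and 3 of 95 up to 500. Members averaging 1 FPKM or more had 2 of 46, 2 of 20, 2 of 11, 0 of 4 and 0 of 7. At an unadjusted p under 0.05, 11 members were higher (8.63% of all genes) and 11 were lower (7.45% of all genes). The groups did not overlap for 13 members that were higher (11.1% of all genes) and 13 that were lower (10.2% of all genes). By the threshold of the study, a fold over 2 at an unadjusted p under 0.05, limma called 0 members, as did limma-voom on estimated fragments, while 2.42% of all genes passed. The median log2 difference was 0.03 over the members and 0.00 over all genes tested, and that of the members was -0.0056 without TNF-α replicate 3 and -0.0026 without Con replicate 2. Sdhb was called with each of the 9 libraries left out in turn, while the count of calls was 3 without Con replicate 1, Con replicate 3 or TNF-α replicate 2 and 2 without TNF-α replicate 3. Without an intensity trend in limma 0 members were called, with 17 at an unadjusted p under 0.05 (6 were called by limma-voom). With 3 libraries against 3, an exact permutation test of a single gene cannot fall below p = 0.1.

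The iron-sulphur subunit of complex II showed the smallest p among the members. Sdhb (chromosome 4, 140961203 to 140979193 in GENCODE M21 on GRCm38) was at 68.5, 64.1 and 66.6 FPKM in Con, at 53.4, 57.1 and 54.3 FPKM in TNF-α, and at 55.9, 58.1 and 57.8 FPKM in TNF-α+WBT. All TNF-α libraries lay below all Con libraries. The log2 difference was -0.27 (SE 0.04, adjusted p = 0.00470, 0.827-fold). No other gene of complex II was called. Sdha was at 86.8, 85.5 and 86.0 FPKM in Con and 88.5, 89.5 and 92.1 FPKM in TNF-α, groups that did not overlap in the opposite direction, with a log2 difference of 0.06 (SE 0.03, adjusted p = 0.333). For the anchors the log2 differences were -0.05 (SE 0.04, Sdhc) and 0.01 (SE 0.04, Sdhd).

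**Figure D2:**
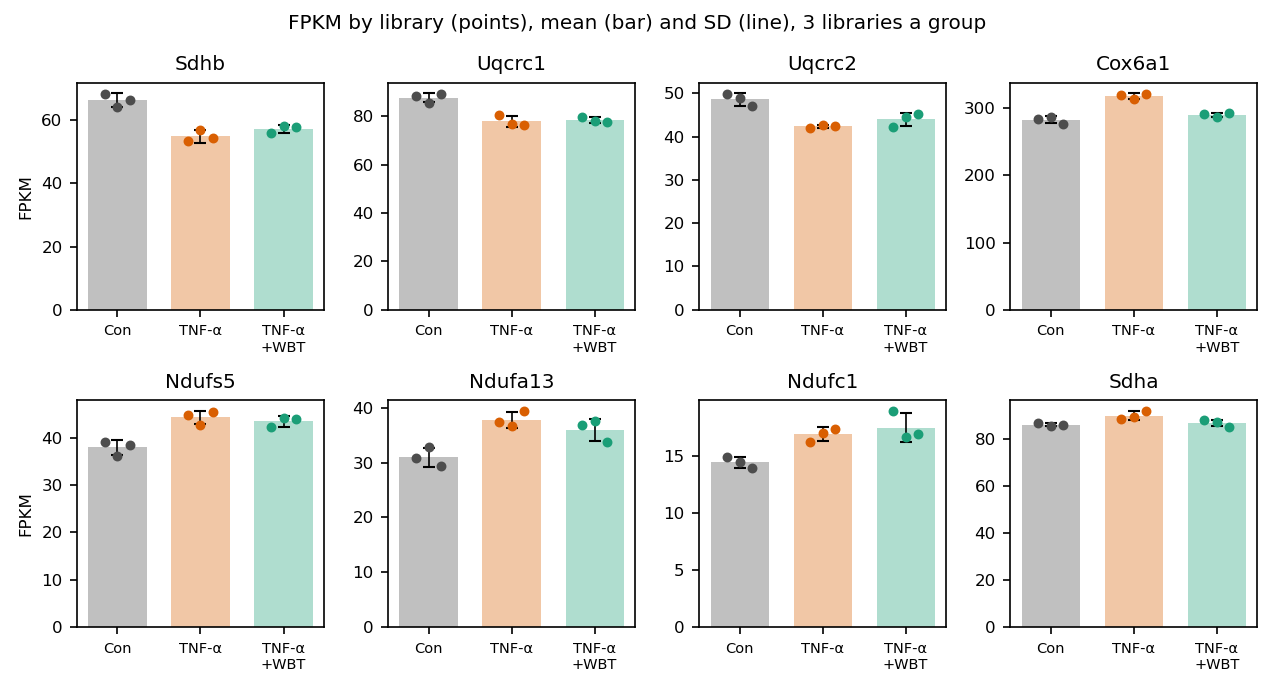
FPKM of the 7 members called in any comparison and of Sdha, with 1 panel a gene, points for libraries, bars for the mean and lines for the SD of 3 libraries, on axes that start at 0. Sdhb, Uqcrc1 and Uqcrc2 are lower in both TNF-α groups than in Con, and Cox6a1 stands at 318 FPKM in TNF-α against 283 in Con and 290.3 in TNF-α+WBT.

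Complex III was, of the 5 complexes, the one with the largest share of members at an unadjusted p under 0.05, with 7 of 9 genes, 5 lower and 2 higher, where 16.1% of all genes reached it in either direction. Uqcrc1, a core protein of the complex, was at 88.3, 85.6 and 89.2 FPKM in Con and 80.4, 76.9 and 76.5 FPKM in TNF-α, and the groups did not overlap. Its log2 difference was -0.17 (SE 0.03, adjusted p = 0.0218). Uqcrc2, the partner core protein, was at 49.7, 49.0 and 47.0 FPKM in Con and 41.9, 42.7 and 42.5 FPKM in TNF-α, again without overlap. Its log2 difference was -0.20 (SE 0.04, adjusted p = 0.0201). Of 20 alternatives, Uqcrc1 lost its call in 6 and Uqcrc2 in 7. Their highest adjusted p over the limma and limma-voom settings was 0.204 and 0.157. The nuclear genes of the redox subunits of complex III were not called. Uqcrfs1, the Rieske iron-sulphur protein, had a log2 difference of -0.12 (SE 0.04, adjusted p = 0.140), and Cyc1 one of -0.10 (SE 0.04, adjusted p = 0.255). Among the small accessory genes the values pointed both ways. Uqcrh, the hinge protein, was at -0.14 (SE 0.04, adjusted p = 0.0681), Uqcr11 at 0.25 (SE 0.06, adjusted p = 0.0754) and Uqcrb at 0.18 (SE 0.07, adjusted p = 0.273) on the log2 scale. The median log2 difference of the 9 genes was -0.10.

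In complex I, 2 of 38 tested genes were called and both were higher, where 2.94% of all genes tested were called higher. Ndufs5, an accessory subunit on the intermembrane space side, was at 39.1, 36.1 and 38.5 FPKM in Con and 44.8, 42.7 and 45.4 FPKM in TNF-α. Its log2 difference was 0.22 (SE 0.04, adjusted p = 0.0211). Ndufa13, an accessory subunit also known as GRIM-19, was at 30.8, 32.8 and 29.4 FPKM in Con and 37.4, 36.6 and 39.4 FPKM in TNF-α. Its log2 difference was 0.29 (SE 0.06, adjusted p = 0.0253). In both genes every TNF-α library was above every Con library. Each lost its call in 7 of 20 alternatives. The highest adjusted p over the limma and limma-voom settings was 0.137 for Ndufs5 and 0.107 for Ndufa13. Ndufa13 overlaps Yjefn3 on the same strand, a gene at 6.29 FPKM, so that reads in shared exons could be divided between them. None of the 8 assembly factors reached an unadjusted p under 0.05 in limma, which 16.1% of all genes tested did. Their log2 differences ran from -0.19 to 0.31.

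In complex IV, 1 of 18 tested genes was called, where 4.86% of all genes tested were called in either direction. Cox6a1 was at 284, 287 and 277 FPKM in Con and 319, 313 and 321 FPKM in TNF-α, with a log2 difference of 0.17 (SE 0.03, adjusted p = 0.0118). It was also the steadiest member of at least 20 FPKM, with an SD within groups of 0.02 on the log2 scale, where the median of the 76 such members was 0.08 and that of 3867 genes of the same level was 0.07. Cox6a1 lost its call in 5 of 20 alternatives. One of these was quantile normalization, where its log2 difference was 0.07 (limma adjusted p = 0.328). Its adjusted p over the limma and limma-voom settings ran from 0.00326 to 0.328. Complex V had 0 of 17 tested genes called by limma. In limma, 16.1% of all genes tested had an unadjusted p under 0.05, and 3 of these 17 did. These were Atp5e, the ε subunit, with a log2 difference of 0.17 (SE 0.05, adjusted p = 0.114), Atp5b with -0.12 (SE 0.04, adjusted p = 0.193) and Atp5g1 with -0.30 (SE 0.08, adjusted p = 0.0811). Atp5b was called under quantile normalization and with limma-voom on estimated fragments, and Atp5g1 among genes averaging 1 FPKM or more (adjusted p = 0.0462) and without Con replicate 3 (adjusted p = 0.0341). Cycs had a log2 difference of 0.05 (SE 0.06, adjusted p = 0.798).

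**Figure D3:**
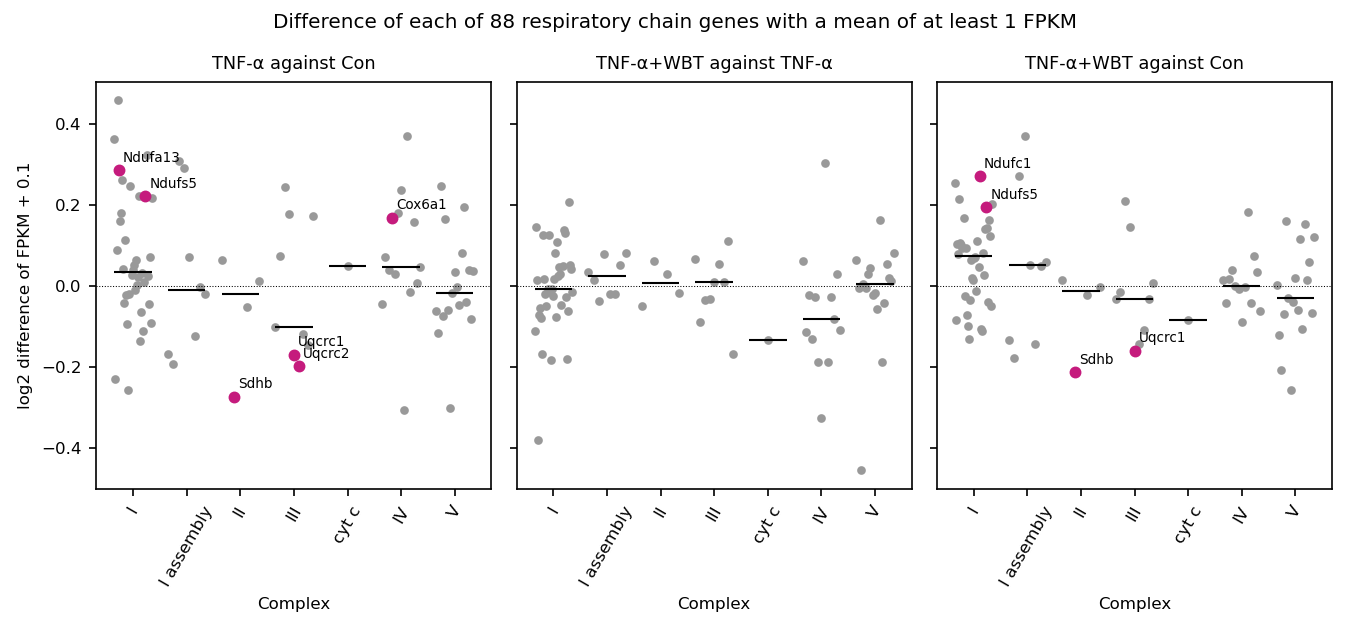
Log2 difference of FPKM + 0.1 for the 88 members with a mean of at least 1 FPKM, grouped by complex, in the 3 comparisons, with black lines for the median of each complex and magenta points for genes called at an adjusted p under 0.05. With TNF-α, 3 called genes lie above 0 in complexes I and IV and 3 below 0 in complexes II and III, and no gene is called when WBT is added to TNF-α.

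The effect of adding WBT was read from TNF-α+WBT against TNF-α. Here limma called 0 of the 95 members, as did limma-voom on estimated fragments, and 1 of all 25417 genes was called (0.00393%). At an unadjusted p under 0.05, limma had 3 members higher (2.88% of all genes) and 3 lower (3.43% of all genes), and limma-voom had 7 members in all. The groups did not overlap for 6 members that were higher (5.39% of all genes) and 3 that were lower (5.61% of all genes). The fold threshold of the study was passed by 0 members under both tools and by 1.12% of all genes. The median log2 difference was -0.01 over the members and 0.00 over all genes.

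The 4 members with the smallest p here were Cox6a1, Cox7a2, Ndufs3 and Uqcrh. Cox6a1 was at 319, 313 and 321 FPKM in TNF-α and 292, 287 and 292 FPKM in TNF-α+WBT, without overlap, and its log2 difference was -0.13 (SE 0.03, unadjusted p = 0.00172 in limma, adjusted p = 0.434). Cox7a2 was at 55.5, 56.9 and 68.8 FPKM in TNF-α and 69.6, 76.9 and 76.6 FPKM in TNF-α+WBT. Its log2 difference was 0.31 (SE 0.09, adjusted p = 0.645), and against Con the same gene had -0.31 (SE 0.09, adjusted p = 0.114) in TNF-α. TNF-α replicate 3 lay nearer to the other groups than the remaining 2 TNF-α libraries did, and without it Cox7a2 was called lower in TNF-α than in Con (limma adjusted p = 0.0283). Ndufs3, a core subunit of complex I, had a log2 difference of 0.14 (SE 0.04, adjusted p = 0.645), and Uqcrh one of 0.11 (SE 0.04, adjusted p = 0.681). Both comparisons use the same TNF-α libraries, so opposite values for a gene in them are not independent of each other.

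Against Con, TNF-α+WBT had 4 members called. Of the 95 members 2 were higher, where 2.31% of all genes were called higher, and 2 were lower, where 1.4% of all genes were called lower. Sdhb had a log2 difference of -0.21 (SE 0.04, adjusted p = 0.0212) and Uqcrc1, at 79.8, 78.2 and 77.5 FPKM in TNF-α+WBT, one of -0.16 (SE 0.03, adjusted p = 0.0343). Ndufs5, at 42.2, 44.2 and 43.9 FPKM in TNF-α+WBT, had a log2 difference of 0.20 (SE 0.04, adjusted p = 0.0453). Ndufc1, an accessory subunit of complex I, was at 14.9, 14.5 and 13.98 FPKM in Con, 16.2, 17.1 and 17.4 FPKM in TNF-α and 19.0, 16.7 and 16.9 FPKM in TNF-α+WBT. Its log2 difference was 0.27 (SE 0.06, adjusted p = 0.0471) against Con, and 0.22 (SE 0.06, adjusted p = 0.0855) in TNF-α alone. At an unadjusted p under 0.05, 7 members were higher (7.95% of all genes) and 6 lower (6.78% of all genes). This comparison shares its Con libraries with the first. All 4 calls were lost when Con replicate 1 or 3, or any 1 of the 3 TNF-α+WBT libraries, was left out. With Con replicate 2 or TNF-α replicate 1 left out 2 members were called, and with TNF-α replicate 2 or 3 left out 1 was.

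The direction of the TNF-α differences varied with transcript length. All 7 members with transcripts of up to 500 bases, among them Ndufa1, Uqcr11 and Atp5e, had higher means in TNF-α, with a median log2 difference of 0.20. In contrast, only 2 of 11 members of 1500 to 2500 bases did, with a median of -0.09. Among all genes averaging 20 FPKM or more, 58 of 95 and 530 of 1066 in these bins had higher means in TNF-α. The bins between those, of 46 and 20 members, had medians of 0.03 and 0.03, and the 4 members over 2500 bases one of 0.06. Over 88 members the Spearman correlation between length and log2 difference was -0.28 in TNF-α against Con, 0.21 in TNF-α+WBT against TNF-α and -0.26 in TNF-α+WBT against Con. Among 3867 genes averaging 20 FPKM or more it was -0.11, 0.05 and -0.08, and their medians in the first comparison went from 0.05 for 95 genes of up to 500 bases to -0.01 for 1697 genes over 2500 bases. These correlations are across genes that share the same libraries and carry no p. The part of length in the single calls was not tested.

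**Figure D4:**
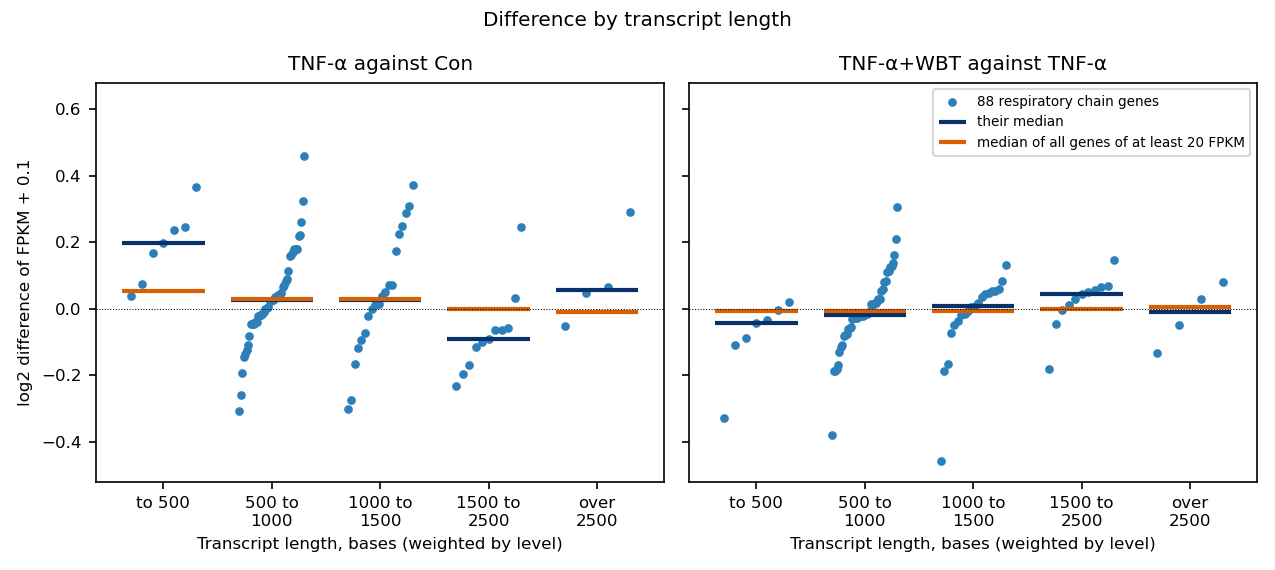
Log2 difference of FPKM + 0.1 against transcript length in 5 bins, for TNF-α against Con and for TNF-α+WBT against TNF-α, with blue points for 88 members sorted within a bin, dark blue lines for their median and orange lines for the median of 3867 genes averaging 20 FPKM or more. In the left panel all 7 members of up to 500 bases lie above 0 and 9 of the 11 members of 1500 to 2500 bases lie below 0.

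The gene values of FPKM depend on how fragments were divided between transcripts. Of 88 members with a mean of at least 1 FPKM, 74 had the same most abundant transcript in all 9 libraries and 14 did not. Of 76 members of at least 20 FPKM, 8 varied by over 1.5-fold between libraries, while the median ratio of the highest to the lowest library was 1.22. In FPKM multiplied by transcript length in kilobases, a measure of fragments at equal depth, the ratio of these 8 ran from 1.19 in Ndufa12 to 1.70 in Ndufb10, and 4 of them remained over 1.5-fold. Cox7a2l was at 99.5, 95.1 and 95.8 FPKM in Con, at 144, 141 and 96.6 FPKM in TNF-α, and at 98.8, 145 and 92.8 FPKM in TNF-α+WBT. The 3 high libraries thus came from both treated groups and left 1 or 2 libraries of each group at the Con level. Transcript Cox7a2l-201 was at 103 to 106 FPKM in these 3 libraries and 56.5 to 62.1 FPKM in the other 6, while Cox7a2l-202 lay at 32.1 to 37.1 FPKM in all 9. On that measure of fragments the 3 libraries were at 157, 153 and 157 and the other 6 at 101 to 108.

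Ndufa12, an accessory subunit of complex I, was at 81.7 FPKM in TNF-α replicate 1 and 38.2 to 49.5 FPKM in the other 8 libraries. In that library the transcript of 566 bases (Ndufa12-204) was at 80.2 FPKM and that of 1110 bases (Ndufa12-201) at 0.358 FPKM, the reverse of the others. In FPKM multiplied by length, which depends less on the transcript chosen, Ndufa12 was at 46.9 in that library and at 40.7 to 48.3 in the others. The largest difference between TNF-α and Con among members of at least 20 FPKM, 0.46 on the log2 scale, was that of Ndufa12 (SE 0.20).

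Atp5c1, the γ subunit that turns within the ATP synthase head, was at 81.5 and 75.4 FPKM in TNF-α+WBT replicates 1 and 2 and at 130 FPKM in replicate 3, against 123, 129 and 131 FPKM in TNF-α. In the 2 low libraries 26.9 and 32.1 FPKM were given to the longer Atp5c1-202, which was at 0.0854 to 3.54 FPKM in the other 7. Atp5c1-201 was at 43.5 to 68.4 FPKM in the TNF-α libraries and TNF-α+WBT replicate 3 and at 0.992 to 6.83 FPKM in the other 5. In FPKM multiplied by transcript length in kilobases the 2 low libraries were at 108 and 105, still below the 138 to 145 of TNF-α while Con replicates 1, 2 and 3 were at 145, 114 and 117 and TNF-α+WBT replicate 3 at 145. The gene had the largest decrease with WBT among members of at least 20 FPKM, with a log2 difference of -0.46 (SE 0.19, adjusted p = 0.766).

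**Figure D5:**
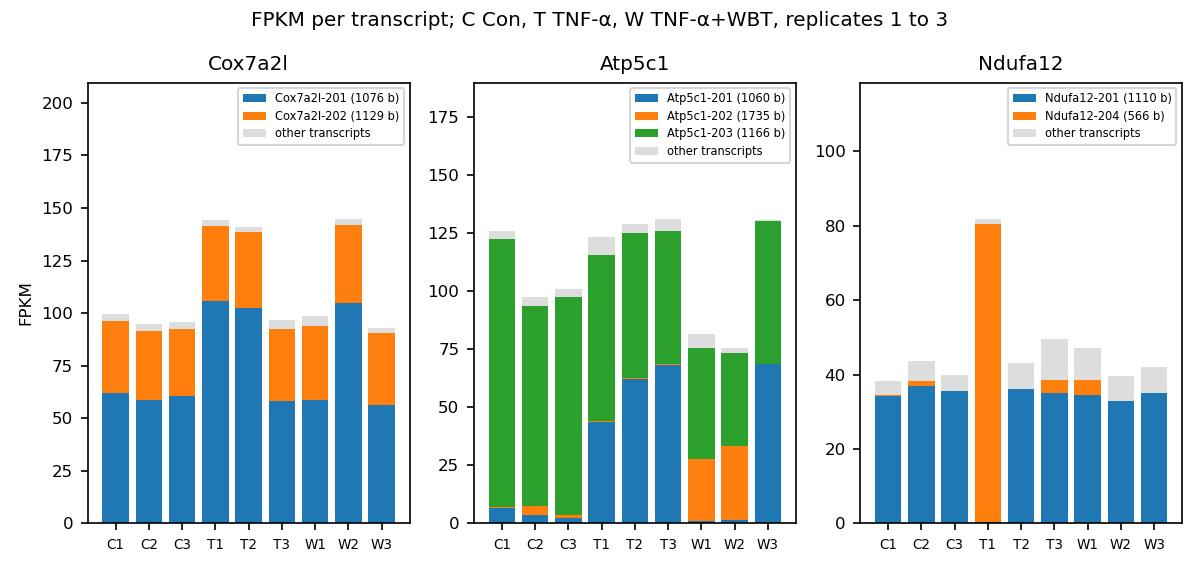
FPKM per transcript in each library as stacked bars for Cox7a2l, Atp5c1 and Ndufa12, with transcript lengths in bases in the legends and transcripts that never passed 20% of a library's value in grey. The bars show the raised Cox7a2l-201 in 3 libraries, the change of transcript of Ndufa12 in TNF-α replicate 1, and the 3 divisions of Atp5c1.

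The other genes of the pathway were described by the same counts. In TNF-α against Con, 16.1% of all genes tested had an unadjusted p under 0.05 in limma. None of the 13 protein genes of mitochondrial DNA was called by limma in TNF-α against Con, with 1 at an unadjusted p under 0.05 (mt-Atp6, a subunit of complex V, log2 difference -0.13, SE 0.05, adjusted p = 0.221). Their median log2 difference was -0.01, and -0.05 when WBT was added to TNF-α, where 0 had an unadjusted p under 0.05. With WBT added, 10 of the 13 were lower (12867 of 25417 genes tested), 3 of them without overlap (5.61% of all genes). In TNF-α+WBT against Con the median was -0.08, and 11 of the 13 were lower (12714 of 25417 genes tested). There 2 had an unadjusted p under 0.05 in limma (14.7% of all genes) and 0 were called. mt-Atp6 was at 3344, 3067 and 3302 FPKM in Con, 3013, 2941 and 2943 FPKM in TNF-α and 2919, 2896 and 2937 FPKM in TNF-α+WBT, so that all treated libraries lay below all Con libraries.

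Of 36 assembly factors of complexes II to V, 2 were called in TNF-α against Con, where 4.86% of all genes tested were called in either direction. Cmc2, a factor of complex IV assembly, was higher by 0.52 on the log2 scale (SE 0.11, adjusted p = 0.0381) at a mean of 3.44 FPKM, and Lrpprc, which stabilizes mitochondrial mRNAs, was lower, with a log2 difference of -0.18 (SE 0.04, adjusted p = 0.0338). Of 18 genes of the tricarboxylic acid cycle, which include the 4 of complex II, 1 was called lower (Sdhb, 1.93% of all genes), and the median log2 difference was -0.05. In TNF-α+WBT against Con, where 1.4% of all genes were called lower, Mdh2, the mitochondrial malate dehydrogenase, was called lower in addition (log2 difference -0.12, SE 0.03, adjusted p = 0.0385). Of 82 mitochondrial ribosomal protein genes, 1 was called in TNF-α against Con (Mrpl38, higher by 0.30, SE 0.07, adjusted p = 0.0398), where 4.86% of all genes were, with a median of -0.02.

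None of 17 regulators of respiratory genes was called by limma in any comparison, with 2 at an unadjusted p under 0.05 in TNF-α against Con (16.1% of all genes tested). Hif1a, the oxygen-sensing factor that favours glycolysis, was at 32.6, 39.2 and 35.01 FPKM in Con, 37.7, 43.2 and 46.5 FPKM in TNF-α and 33.7, 32.9 and 34.3 FPKM in TNF-α+WBT. Its log2 differences were 0.25 (SE 0.09, adjusted p = 0.175) with TNF-α and -0.33 (SE 0.09, unadjusted p = 0.00440 in limma, adjusted p = 0.559) when WBT was added. Pprc1, a coactivator of the PGC-1 family, was at 13.8, 13.96 and 17.1 FPKM in Con and 12.8, 11.6 and 13.2 FPKM in TNF-α, with a log2 difference of -0.25 (SE 0.10, adjusted p = 0.258).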

How the data were processed

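Poly(A) RNA of 9 cultures, 3 a group, was sequenced as paired ends. The authors deposited FPKM values per gene and per transcript, made according to their scheme with HISAT2, StringTie and Ballgown; versions and genome build are not given in the sources used here. No fold changes of the authors were used. Depth was estimated from the steps of low FPKM values of 10717 single-transcript genes (fragments = FPKM × length × depth). Gene symbols were taken from GENCODE M21, which named 98.0% of the 56289 rows. Differences were tested with limma 3.58.1 (R 4.3.3; trended eBayes, 1 model, 3 contrasts) on log2(FPKM + 0.1) over genes that were not 0 in 3 or more of the 9 libraries, with Benjamini-Hochberg adjustment; differences on this scale understate changes of low genes. The procedure was tested on simulated data. No 2 libraries were identical. The members and lists were chosen with earlier results of these data known. Named members are the highest and lowest of each complex, those called or, where fewer than 4 were, the 4 smallest p, complex II, Cyc1, Cycs, paralogue sets and members below 1 FPKM; from other lists the smallest p, at most 2 a direction. Uqcrfs1, Uqcrh, Uqcrb, Uqcr11, Atp5e, Atp5a1, Ndufa1, Ndufa12, Ndufb10 and Atp5c1 are, for some of their values, named after these were seen. One item that the rule selects is not reported here. Alternatives varied pseudocount, filter, trend, groups fitted, scaling, replicate block and libraries; limma-voom on estimated fragments was added after seeing the data.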

Additional observations from a re-analysis of the deposited data

How the results depend on the processing

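Each count of called members was recomputed under 21 alternatives a comparison, of which limma-voom on fragment estimates was added once the data had been seen. The share of all genes called under each alternative is not given, here or above, so these counts describe the members alone. A change of filter also alters the genes tested and with them the adjustment of every p. In TNF-α against Con, where 6 were called, 11 were called among genes averaging 1 FPKM or more and 0 without an intensity trend (17 at an unadjusted p under 0.05), and 2 to 9 with 1 library left out. In TNF-α+WBT against Con, where 4 were called, 2 were called with no filter beyond a value above 0 in 1 library, 2 after centring on the library median, 2 after quantile normalization, 1 when only the 2 groups were fitted, 0 without a trend (9 at an unadjusted p under 0.05), and 0 to 2 with 1 library left out. The cause was not tested. In TNF-α+WBT against TNF-α, limma and limma-voom called 0 members under every alternative run. Of the 63 medians of log2 differences, 62 moved by less than the SD of library medians (0.03), and the exception was TNF-α against Con without TNF-α replicate 3, where the median went from 0.03 to -0.0056 (range with 1 library left out -0.0056 to 0.0463). With a replicate block, 4 members were called in TNF-α against Con, 0 in TNF-α+WBT against TNF-α and 0 in TNF-α+WBT against Con. Deviations of libraries with the same replicate number correlated at -0.03 to 0.03 in 9 pairs, against -0.03 to 0.03 in 18 pairs with different numbers. Over all genes tested, libraries with the same number were thus no more alike than others. A shared culture or sequencing batch was not tested. Values were also recomputed for the members at an unadjusted p under 0.05 in the limma fit of each comparison. Of these 820 values, 719 kept their direction and their side of the threshold, 84 lost a call, 17 gained one and 0 changed sign. A kept sign says little here, since the members were taken by that p. Among other named members the sign could change, as for Sdhd in TNF-α against Con (log2 difference -0.0086 to 0.0448). Sdhb was called under 20 of 21 settings in TNF-α against Con, with an adjusted p of 0.0631 without a trend in limma. Depth limits the least expressed members, since the lowest value among members above 1 FPKM in all 9 libraries rested on an estimated 57.1 fragments.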
